A study of Caenorhabditis elegans with 2 samples.

Results

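The peaks described here are those of TBX-7 chromatin immunoprecipitation that lay in the promoter of 1 protein-coding gene and of no other. They were chosen from the peaks with the highest signal in the list called on both replicates together, which held 8759 peaks, down to a rank 2 times that of the last of the 690 peaks in the authors' optimal IDR list. A peak was kept when its summit lay between 1000 bp upstream and 200 bp downstream of the start of exactly 1 protein-coding gene, and genes followed on the same strand by another gene beginning within 500 bp of their end were left out, because such pairs may be transcribed as an operon. This left 332 peaks in the promoters of 324 genes, or 2.02% of the 16032 genes that remained. Of the remaining peaks, 273 lay in promoters shared by divergent genes, 117 in promoters of genes left out as possible operon heads, 22 in promoters shared by genes on the same strand, and 636 in no promoter. Signal and position chose the peaks, so both are given below as a description, with no test. Of the 332 peaks, 170 were in the optimal IDR list, which holds peaks that passed a test of reproducibility between replicates (IDR, irreproducible discovery rate), and 162 were not.

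The samples formed 1 group of 2 biological replicates, and no condition was compared. Each replicate was made from whole late embryos of the Caenorhabditis elegans strain OP311, hermaphrodite, taken 3 h after synchronization by egg bleaching. The strain stably expresses a transgene in which TBX-7 carries GFP and FLAG at its C terminus, and an antibody to GFP recovered the tagged protein. The antibody field of the labels names tbx-7, read here as the target. Neither the promoter that drives the transgene nor the state of the endogenous gene is stated in the labels. Both replicates were set against the same control alignment. The lists carry no read totals, so the depth is unknown. Because whole embryos were used, a peak in few cells and weak binding in many cells cannot be told apart.

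TBX-7 belongs to the T-box family, transcription factors that share a DNA-binding domain and are known from many animals as regulators of cell fate in the embryo. The sequence most T-box domains recognise in other animals contains GGTGTGA. Genes of this nematode are densely packed, many lie head to head and share the sequence between their starts, and some are transcribed together as operons. Many transcripts receive a spliced leader, so the annotated start of a gene can lie downstream of the place where transcription begins, and distances below refer to the annotated start.

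Before any values, 10 summit windows are shown, because they carry the short words that were more frequent at the summits than beside them. Each window extends 50 bp from its summit in both directions on the + strand of the RefSeq sequence of WBcel235 (ce11). They come from strong peaks on chromosomes other than I whose window held at least 1 of 5 such words and no annotated untranslated region. Capitals mark the 5 words, read on both strands. The first is CCTCTC, which reads GAGAGG on the other strand. The next is CGGCCA, which reads TGGCCG on the other strand. ACACTC reads GAGTGT there, while AGCGCG reads CGCGCT there, and the palindrome CGGCCG reads the same. The pair that begins with CGGCC differs in its last letter and can overlap across strands. The genes belong to varied classes: M01F1.9 encodes a protein with an arrestin-like domain, cyn-10 and pinn-1 encode peptidyl-prolyl isomerases, which help proteins fold or change shape, zipt-9 a zinc transporter, rpl-3 a ribosomal protein, F13A7.14 a protein with a bZIP domain, mppb-1 a subunit of the peptidase that trims proteins imported into mitochondria, eas-1 a putative Golgi transport protein, C47E8.4 a FAM50 homolog and C49A9.10 a protein with an oxidoreductase-like domain.
M01F1.9, III:3499986-3500086: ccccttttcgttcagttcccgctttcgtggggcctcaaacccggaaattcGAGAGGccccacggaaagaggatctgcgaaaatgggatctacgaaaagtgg
cyn-10, II:6913452-6913552: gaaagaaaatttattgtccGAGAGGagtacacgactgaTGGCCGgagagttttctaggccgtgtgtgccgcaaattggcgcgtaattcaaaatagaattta
C49A9.10, IV:6206536-6206636: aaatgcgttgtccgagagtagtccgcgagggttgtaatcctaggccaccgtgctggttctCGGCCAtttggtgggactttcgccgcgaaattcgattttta
C47E8.4, V:14685706-14685806: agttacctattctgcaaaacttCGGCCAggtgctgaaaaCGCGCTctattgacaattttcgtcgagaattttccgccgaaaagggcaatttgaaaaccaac
zipt-9, V:13715437-13715537: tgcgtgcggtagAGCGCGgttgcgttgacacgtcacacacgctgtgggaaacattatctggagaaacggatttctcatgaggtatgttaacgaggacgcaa
pinn-1, II:2889340-2889440: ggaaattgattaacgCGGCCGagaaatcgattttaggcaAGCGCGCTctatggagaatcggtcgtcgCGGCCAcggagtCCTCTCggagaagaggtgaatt
eas-1, II:4740120-4740220: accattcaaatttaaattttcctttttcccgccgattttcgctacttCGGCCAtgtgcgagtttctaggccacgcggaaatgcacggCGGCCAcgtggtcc
rpl-3, III:3867532-3867632: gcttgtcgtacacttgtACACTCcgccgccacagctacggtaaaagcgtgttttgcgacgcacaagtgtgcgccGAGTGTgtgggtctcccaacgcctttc
F13A7.14, V:16401673-16401773: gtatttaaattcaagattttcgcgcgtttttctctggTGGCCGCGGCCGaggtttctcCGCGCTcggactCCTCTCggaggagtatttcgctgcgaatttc
mppb-1, IV:9074366-9074466: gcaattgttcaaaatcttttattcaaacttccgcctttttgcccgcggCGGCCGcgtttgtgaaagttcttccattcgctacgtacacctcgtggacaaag

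In these windows pinn-1 and F13A7.14 held several of the words, whereas zipt-9 and mppb-1 held 1 each. Across all 332 peaks, 173 windows (52.1%) held at least 1 of the 5 words, against 29 (8.73%) of 332 equal windows centred 500 bp from the summits and 124 (45.4%) of the 273 shared divergent promoter peaks. The 5 words are those with the smallest adjusted p of all six-base words, each counted together with its other strand, so this sum is a description. Of all such words, 226 (10.9%) were more frequent at the summits than in the flanks and 144 (6.92%) were less frequent, by the exact McNemar test with Benjamini-Hochberg adjustment at 0.05. With fewer or other peaks the counts were lower: 147 and 79 without replicate 1, 142 and 65 without the X chromosome, and 59 and 23 with the optimal IDR list alone. The test takes peaks as independent, which peaks with related sequence are not.

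CCTCTC was in 56 of the 332 summit windows (16.9%) and in 7 flank windows (2.11%), with an adjusted p of 1.23e-08 by the exact McNemar test. CGGCCA was in 58 (17.5%) summit and 13 (3.92%) flank windows, adjusted p = 7.4e-08 by the same exact test. ACACTC was in 45 (13.6%) and 4 (1.2%), and AGCGCG in 44 (13.3%) and 5 (1.51%), both with an adjusted p of 2.25e-07 (exact McNemar). The palindrome CGGCCG was in 30 summit windows (9.04%) and in 0 of 332 flank windows, a count that allows up to 0.904%, with an adjusted p of 3.98e-07 (exact McNemar). For each of the 5 words the summit share was thus several times the flank share. All 5 words were still more frequent at summits under each of the 11 alternative settings. The highest adjusted p by the exact McNemar test was 0.0292, for ACACTC when the peaks on the X chromosome were left out. Most of these settings reuse the summit windows on which the words were chosen, so their persistence is a description. In windows 302 bp upstream of the start of each of the 16032 protein-coding genes that the rule leaves, the shares were 2.86% for CCTCTC, 1.78% for CGGCCA, 3.08% for ACACTC, 1.48% for AGCGCG and 0.767% for CGGCCG.

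The words that were less frequent at the summits were rich in A and T. AAAAAT was in 66 summit windows (19.9%) and 171 flank windows (51.5%), adjusted p = 8.65e-14 by the exact McNemar test. AAAATT was in 54 and 133 (adjusted p = 1.96e-09, exact McNemar), AAAAAA in 59 and 138 (1.23e-08) and AAATTA in 21 and 78 (3.98e-07). CTGAAA, whose other strand TTTCAG is the consensus of the 3′ splice site in this nematode, was in 19 summit windows and 79 flank windows (adjusted p = 1.23e-08, exact McNemar). Base composition moved with these counts. The median G plus C share was 50.5% in the summit windows, against 35.6% in the flanks, 46.5% at shared divergent summits and 33.7% in the windows upstream of all 16032 genes, and it was higher than in its own flank for 287 of the 332 peaks. Of the 192 words with 5 letters G or C, 82 were more frequent at summits and 0 less frequent, while of the 192 words with 1 such letter 70 were less frequent and 0 more frequent. The part of base composition in the word counts was not tested.

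**Figure D1:**
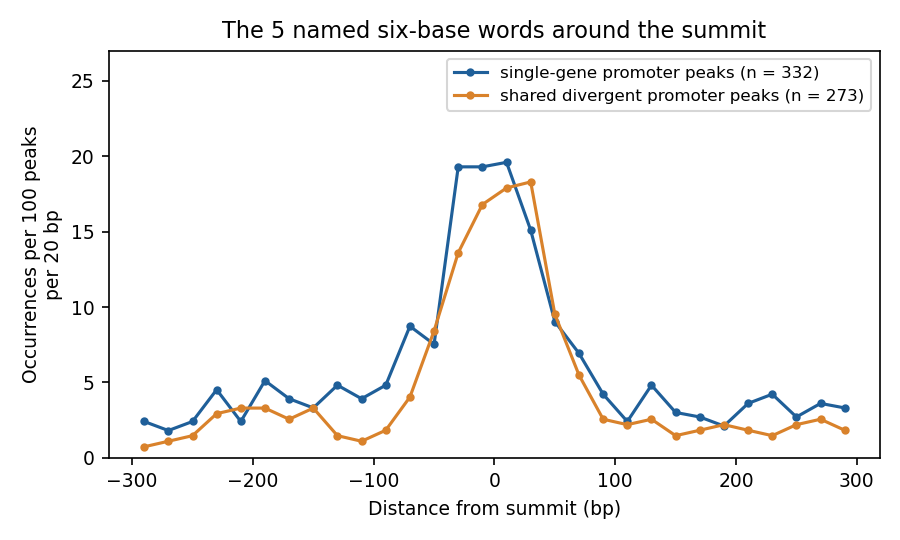
The plot shows how often the 5 words marked in the printed windows occurred, as occurrences per 100 peaks in bins of 20 bp (vertical axis) against distance from the summit in bp (horizontal axis), for the 332 single-gene promoter peaks and the 273 shared divergent promoter peaks. Single-gene promoter peaks reached 19.6 occurrences per 100 peaks in the bin centred 10 bp from the summit and lay between 1.81 and 4.52 more than 200 bp away.

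The words were concentrated at the summit itself, as the plot of occurrences by distance shows. They were chosen on the windows within 50 bp of the summit, so the height there is a description. Around single-gene promoter peaks the bins within 60 bp of the summit averaged 15 occurrences per 100 peaks, against 3.1 in bins more than 200 bp away. Around shared divergent promoter peaks the averages were 14.1 near the summit and 1.94 away from it, and neither was tested against those of single-gene peaks. None of the 5 words differed in frequency between single-gene and shared divergent promoter peaks by Fisher's exact test. Of all six-base words, 3 (0.144%) did so after adjustment and 202 at an unadjusted p under 0.05. The 3 words were AAAAAT, in 66 single-gene (19.9%) and 112 shared divergent windows (41%, adjusted p = 4.39e-05 by Fisher's exact test), AAAACC, in 14 and 40 (adjusted p = 0.0109, Fisher's exact test), and TAAAAA, in 41 and 69 (0.0354). With the peaks of the optimal IDR list alone, 0 words differed and 128 did at an unadjusted p under 0.05 by Fisher's exact test, and the adjusted p of AAAAAT was 0.351. Without peaks on the X chromosome 2 words differed, AAAAAT (adjusted p = 0.0144, Fisher's exact test) and AAAACC. Windows of 75 bp to either side gave 36 differing words, and the peaks of replicate 2 alone, without replicate 1, gave 7. The classes differ in where their summits lie from gene starts and in their share on the X chromosome, both given below. They also differ in G plus C share, given above. The part of each in the words was not tested.

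The T-box sequence itself was rare. GGTGTGA, read on both strands, was in 2 summit windows (0.602%), those of tag-294 and aipl-1, in 3 flank windows (0.904%) and in 0.724% of windows upstream of all 16032 genes. The shorter core GGTGT was in 57 summit windows (17.2%), 36 flank windows (10.8%) and 45 shared divergent windows (16.5%), with 10.3% in windows upstream of all genes. No test was made on these words, whose lengths lie outside the six-base table. Among other words with a known background, CCCGCC, which resembles a GC box, was in 25 summit and 2 flank windows (adjusted p = 0.000178, exact McNemar), and CTCTCT in 54 and 20 (0.0014). TATAAA, the TATA box, was in 12 summit and 30 flank windows (0.0451, exact McNemar). The E-box CACGTG was in 11 windows of either kind, and the GATA site AGATAA in 6 and 17 (0.132, exact McNemar).

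Longer sequences recurred as well. Of the 332 peaks, 44 (13.3%) shared a stretch of 20 bases within 100 bp of the summit with another of them, and sharing linked them into 13 families. Leaving them out gave 208 words more frequent and 137 less frequent at the remaining summits. The largest family had 8 peaks, at cyn-10, Y73B6BL.29, R166.2, npp-8, cpn-3, F35C5.12, acl-2 and C47G2.3, of which 6 were in the optimal IDR list. Of these genes, npp-8 encodes a protein of the nuclear pore, Y73B6BL.29 a tRNA pseudouridine synthase and cyn-10 a cyclophilin. The windows of 4 of them, 100 bp to either side of the summit on the + strand of WBcel235 (ce11), are shown because separate genes carry the same element near the summit, with the bases shared with another member in capitals.
cyn-10, II:6913402-6913602: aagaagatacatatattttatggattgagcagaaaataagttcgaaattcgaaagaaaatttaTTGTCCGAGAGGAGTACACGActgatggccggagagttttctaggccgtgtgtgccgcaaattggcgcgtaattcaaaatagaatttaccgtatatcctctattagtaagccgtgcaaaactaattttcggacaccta
Y73B6BL.29, IV:6321776-6321976: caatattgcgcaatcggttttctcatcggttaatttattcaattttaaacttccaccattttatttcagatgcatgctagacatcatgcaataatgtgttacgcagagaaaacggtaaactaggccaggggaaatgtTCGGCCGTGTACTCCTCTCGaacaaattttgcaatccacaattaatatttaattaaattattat
R166.2, II:10538057-10538257: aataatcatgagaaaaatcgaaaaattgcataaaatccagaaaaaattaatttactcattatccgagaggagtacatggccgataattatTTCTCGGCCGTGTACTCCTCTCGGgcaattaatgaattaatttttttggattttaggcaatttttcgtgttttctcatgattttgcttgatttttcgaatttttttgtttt
npp-8, IV:1595874-1596074: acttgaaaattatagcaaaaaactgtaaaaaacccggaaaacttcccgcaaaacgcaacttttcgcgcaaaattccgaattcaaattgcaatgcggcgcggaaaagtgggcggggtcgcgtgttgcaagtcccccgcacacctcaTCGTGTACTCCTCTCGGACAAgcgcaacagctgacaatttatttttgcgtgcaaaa

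The letters GTGTACTCCTCTCG, or their other strand in cyn-10, stood in all 4 windows, and they contain the word CCTCTC. In Y73B6BL.29 and R166.2 it followed directly on CGGCC, so that CGGCCG overlapped its first base. The summits lay at different distances upstream of the starts, 137 bp for cyn-10, 53 bp for Y73B6BL.29 and 150 bp for npp-8. At Y73B6BL.29 the shared stretch itself ran across the annotated start. Among the eight-base words counted over all summits, CTCTCGGA was in 19 windows and 0 flanks, and CTAGGCCA in 28 windows, 1 flank and 35 shared divergent windows. CTAGGCCA stood, for example, in the windows of C49A9.10 and eas-1 printed above. These longer words were picked for their counts and carry no test.

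The family with the next most peaks held 7 at 6 genes: M01F1.9, Y32B12B.4, eel-1 (both of its peaks), ttll-4, C09E7.7 and Y61A9LA.12, of which 6 peaks were in the optimal IDR list. It included the strongest single-gene promoter peak of all, at M01F1.9, although that peak shared only a stretch of 20 bases. The windows of Y32B12B.4 and of the more distant eel-1 peak are shown because they carry tandem copies of a unit close to the letters CCCCTTTTCG, with bases shared within the family in capitals.
Y32B12B.4, V:16553014-16553214: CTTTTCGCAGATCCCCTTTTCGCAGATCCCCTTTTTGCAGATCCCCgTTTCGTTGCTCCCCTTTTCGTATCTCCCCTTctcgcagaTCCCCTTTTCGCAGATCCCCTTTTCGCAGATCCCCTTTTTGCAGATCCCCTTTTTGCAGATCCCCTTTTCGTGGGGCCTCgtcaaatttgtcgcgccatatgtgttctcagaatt
eel-1, IV:3050758-3050958: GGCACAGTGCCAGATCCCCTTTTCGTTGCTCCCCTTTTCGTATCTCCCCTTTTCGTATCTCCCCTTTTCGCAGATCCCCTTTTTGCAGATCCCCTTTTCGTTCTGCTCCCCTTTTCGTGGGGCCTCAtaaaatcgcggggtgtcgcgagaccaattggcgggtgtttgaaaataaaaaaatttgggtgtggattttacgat

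Such sequence is hard to place reads on. Within 50 bp of the summit, 57.7% of the 31-base words of the Y32B12B.4 peak and 63.4% and 69% of those of the eel-1 peaks occurred elsewhere in the genome. Windows made mostly of such repeated words were found at 16 of the 332 peaks (4.82%), and any such word at 37 (11.1%). No source used here states how reads with several placements were treated.

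The strongest peak, at M01F1.9, which encodes a protein with an arrestin-like domain, had a signal of 997 in the pooled list (rank 2 of 8759), 527 in replicate 1 and 472 in replicate 2. Signal is given on the scale of the authors' peak caller, is set within each list and has no unit. Its summit lay 979 bp upstream of the start, in an intron of the neighbouring gene M01F1.8. Y32B12B.4, with a domain like that of LIN-15A and LIN-15B, had 531 in the pooled list, 275 in replicate 1 and 245 in replicate 2, and Y50D4C.5 had 511, 251 and 273. The eel-1 gene, which encodes a HECT-type ubiquitin ligase, had 2 peaks whose called intervals overlapped. The peak 553 bp upstream had 494 in the pooled list and 267 in replicate 1, with no replicate 2 summit within 100 bp. The peak 754 bp upstream had 360, 155 and 224. Its replicate 2 summit lay 100 bp away, the farthest that matching allowed, so giving that summit to 1 of the 2 peaks rests on this limit. C34C12.9 followed with 489, 273 and 221, and cyn-10 with 430, 199 and 230. M01F1.9 ranked 2 in both replicate lists as well. Signals of different lists are on different scales and are set side by side only to show the order of peaks within each.

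**Figure D2:**
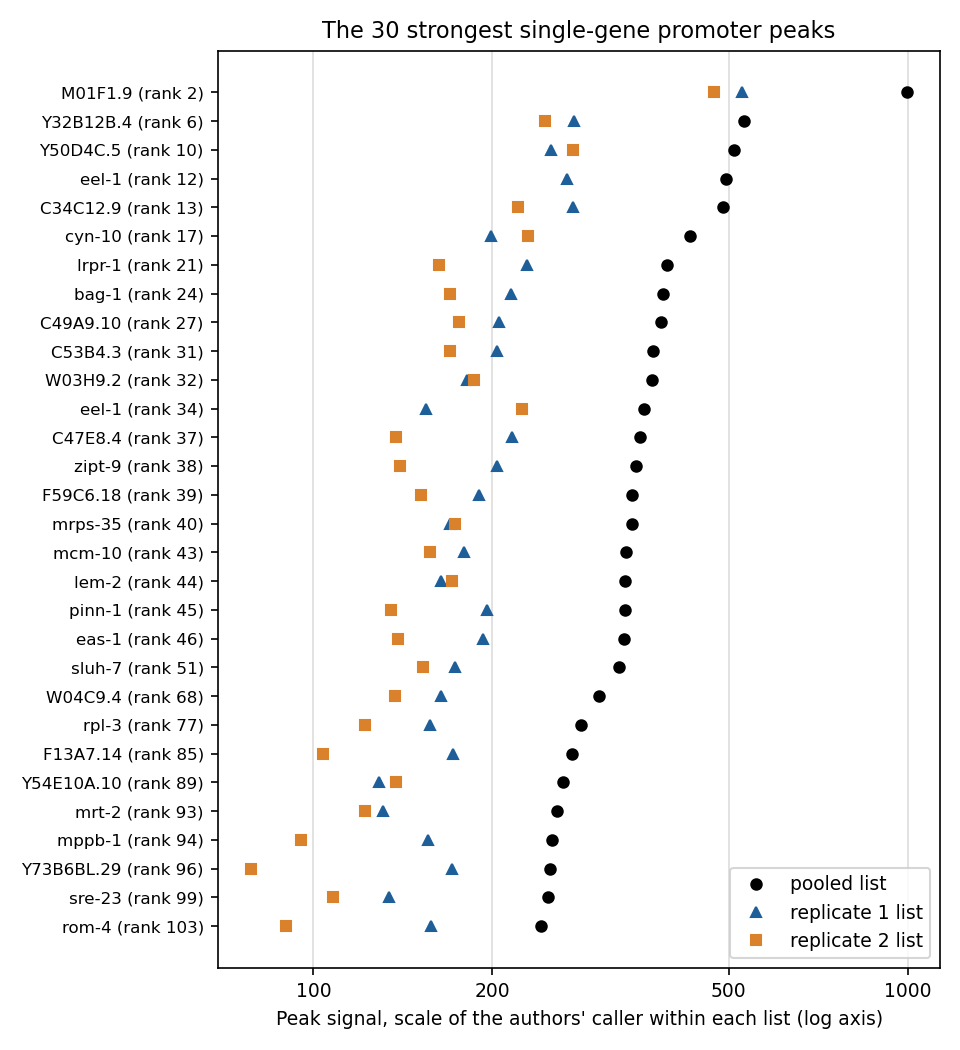
The plot shows the signal of the 30 strongest single-gene promoter peaks (horizontal log axis, scale of the authors' caller within each list) in the pooled list (circles), the replicate 1 list (triangles) and the replicate 2 list (squares), 1 row per peak with its rank in the pooled list. M01F1.9 stands apart at 997, the others lie between 242 and 531, and the upper eel-1 peak has no replicate 2 point, as no summit lay within 100 bp.

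Genes of several cellular processes stood among the 30 strongest. lrpr-1, with a RAP domain, had a pooled signal of 393 with its summit 6 bp upstream of the start. bag-1, a partner of the Hsp70 chaperone, had 388, C53B4.3, a transporter of the major facilitator superfamily, had 373, and W03H9.2, with an RNA recognition motif, had 372. mcm-10, a DNA replication factor, had 336 (179 in replicate 1 and 157 in replicate 2), and mrt-2, a checkpoint protein homologous to RAD1, had 257 with its summit 154 bp downstream of the start. lem-2, a protein of the inner nuclear membrane, had 334 (164 and 171). RNA and protein synthesis were represented by sluh-7 (327), a pre-mRNA splicing factor, mrps-35 (343), a mitochondrial ribosomal protein, rpl-3 (282), and Y54E10A.10 (263), a homolog of ribosome production factor 2.

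The median pooled signal of the 332 peaks was 88.1 (range 60.6 to 997), against 115 for the 273 shared divergent promoter peaks and 96.9 for the 117 possible operon heads. In the optimal IDR list were 51.2% of single-gene, 66.7% of shared divergent and 58.1% of operon head peaks. Both orders follow from signal, since the optimal IDR list was found to hold exactly the 690 highest pooled peaks. At its edge, sms-2 (rank 689) had the weakest peak inside, and gei-4 (rank 693) had the strongest outside, with a signal of 85.8. After gei-4 the strongest outside were rpl-24.2 (85.3) and F37F2.2 (85.2), a putative subunit of the signal recognition particle. Next were wrm-1 (84.6), a beta-catenin of Wnt signalling, and epg-7 (83.9), an autophagy protein. The gene rpl-24.2 carries a ribosomal protein name but had no matched RefSeq product. At the threshold of the rule, the 5 weakest peaks inside were C18F10.7 (60.9), cox-5A (60.9), mai-2 (60.8), imb-2 (60.7) and lin-5 (60.6), and the next below it were cnx-1 (60.5), a second peak upstream of unc-85 (60.5), smg-8 (60.5), T24B8.3 (60.5) and T06E4.7 (60.4). Neither edge was marked by a gap in signal.

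Each replicate list was searched for a summit within 100 bp of each of the 332. A match was found in both lists for 304 peaks (91.6%), in replicate 1 alone for 19, in replicate 2 alone for 9, and in neither for 0. The pooled list was called on the same alignments, so a match is not independent of the choice. Peaks in the optimal IDR list were matched in both replicates in 163 of 170 cases, and peaks outside it in 141 of 162. Matched summits lay a median of 14 bp away in replicate 1 and 11 bp away in replicate 2. Matching took the nearest summit within 100 bp, so larger shifts could not enter these medians. Median signal was 67.6 in replicate 1 and 63.6 in replicate 2 for peaks in the optimal IDR list, against 34.5 and 34.8 for those outside.

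**Figure D3:**
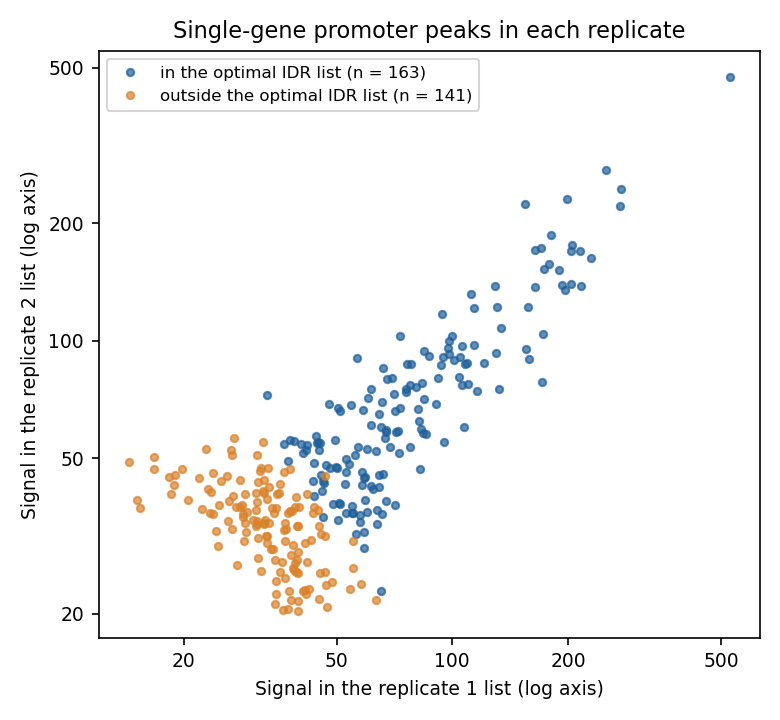
The plot sets the signal of each single-gene promoter peak in the replicate 2 list (vertical log axis) against that in the replicate 1 list (horizontal log axis) for the 304 peaks matched in both, 163 in the optimal IDR list and 141 outside it. Peaks outside the list fill the lower left corner, and their replicate signals reach 65.9 and 56.4 at most.

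Across the 304 peaks matched in both lists, Spearman's rho between the replicate signals was 0.65 and Pearson's r of their log2 values 0.78. These points share the control and were chosen by pooled signal, and the values are given with no p. Within as many highest peaks of both replicate lists as the rule takes from the pooled list lay 183 of the 332, 159 of them in the optimal IDR list and 24 outside. The replicate 1 list holds 16060 peaks and the replicate 2 list 9840, so their low ranks are not on the same scale, and the ranks are given only to show which peaks were high in 1 list and low in the other. By the ratio of replicate 1 to replicate 2 rank, the lowest was wrm-1, at rank 423 in replicate 1 and 6747 in replicate 2, followed by the palmitoyltransferase gene dhhc-14 (407 and 5527), sor-1 (682 and 7867), oga-1 (487 and 4806) and aipl-1 (558 and 5382). The highest ratio was that of pot-3, a telomere-binding protein gene, at rank 15222 in replicate 1 and 561 in replicate 2, with 83.1% of the 31-base words of its window repeated elsewhere, then mai-2 (10055 and 528), C07A9.9 (10087 and 613), imb-2 (13433 and 917) and tif-1A (12649 and 1053). Of these 10 peaks, dhhc-14 alone was in the optimal IDR list.

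Applied to each replicate list by itself, the same rule gave 328 peaks at 319 genes in replicate 1 and 312 peaks at 306 genes in replicate 2. Replicate 1 returned 248 of the 324 genes, which is 76.5% of them and 77.7% of its own. Replicate 2 returned 249, which is 76.9% and 81.4%. Both replicates returned 189. Of the 167 genes with a peak in the optimal IDR list, replicate 1 returned 164 (98.2%) and replicate 2 returned 159 (95.2%). Both the rule and the optimal IDR list take the highest signals, so the higher share among the 167 follows from the choice.

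Most summits lay a short way upstream of the start. Their median distance was 302 bp upstream, with quartiles of 154 and 529 bp. Of the 332, 19 (5.72%) lay downstream of the start, 29 (8.73%) within the first 100 bp upstream, 116 (34.9%) from 100 bp to under 300 bp, 77 (23.2%) from 300 bp to under 500 bp and 91 (27.4%) further. Shared divergent summits lay a median of 149 bp upstream of the nearer start, with 27.1% in the first 100 bp and 2.56% at 500 bp or beyond, and operon head summits 269 bp. The rule shapes this difference, since a point far upstream of a gene that meets no other promoter counts as single, and it carries no test.

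**Figure D4:**
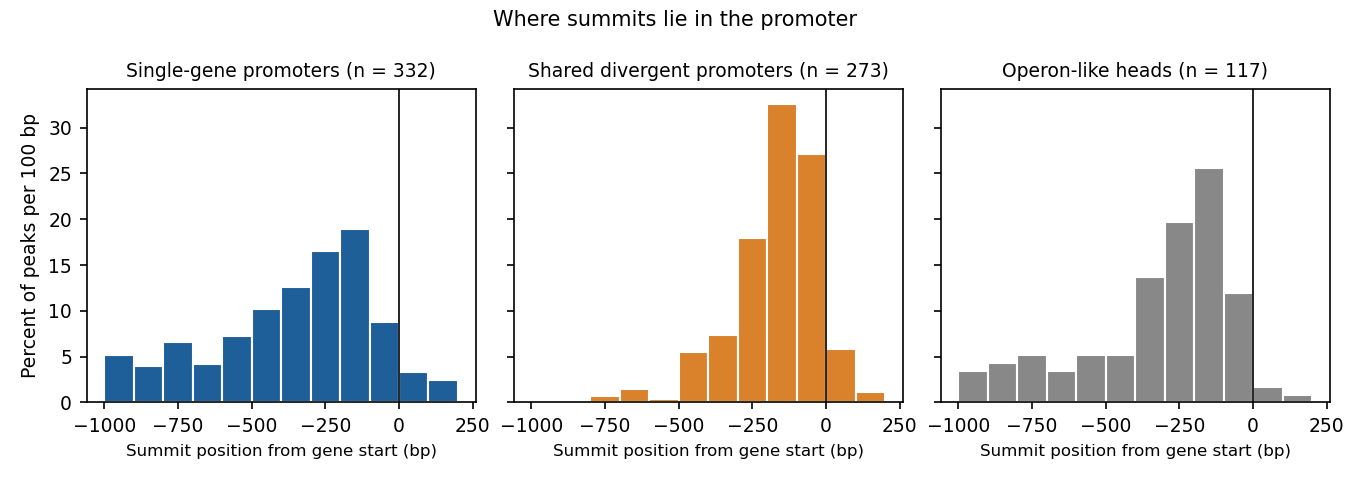
The histograms show the percent of peaks (vertical axis) per 100 bp of summit position from the annotated gene start in bp (horizontal axis, negative upstream, line at the start) for 332 single-gene, 273 shared divergent (nearer start) and 117 operon head promoter peaks. Single-gene peaks have the longest upstream tail, with 27.4% at 500 bp or beyond.

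By annotation, 272 summits (81.9%) were intergenic, 25 were in introns, 18 in 5′ untranslated regions, 14 in coding exons and 3 in 3′ untranslated regions of protein-coding genes. A summit lay inside its own gene in 19 cases and inside another gene in 41 (12.3%). The neighbour upstream was on the same strand for 186 peaks (56%), with a median gap of 785 bp, and on the opposite strand for 146 (44%), with a median gap of 3275 bp. The genes were on the + strand for 165 peaks and on the - strand for 167. In 60 cases (18.1%) the gene itself began within 500 bp of the end of a same-strand gene, the arrangement of a downstream operon gene, which the rule leaves in because it looks only at the gene that follows. Downstream genes of an operon are transcribed from a promoter further upstream, and trans-splicing data that would tell them apart were not used here.

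In 8 of the 324 genes the promoter held more than 1 such peak, 2 in each case. The 2 called intervals overlapped in all 8 genes, so the summits are not shown to be separate sites of binding. These were eel-1, W03H9.2, ftt-2, smvt-1, phf-15, F38E11.9, F37F2.2 and vps-39. W03H9.2 had summits 148 bp upstream (pooled signal 372) and 349 bp upstream (191). ftt-2, a 14-3-3 protein gene, had 191 at 579 bp and 106 at 789 bp, of which the peak at 789 bp was unmatched in replicate 2. phf-15, with a PHD domain, had 126 at 340 bp and 71 at 139 bp, and vps-39, a vacuolar sorting gene, had 66.5 at 130 bp and 62.1 at 490 bp. Of the 8 genes, eel-1, W03H9.2 and ftt-2 had both peaks in the optimal IDR list, and F37F2.2 and vps-39 had neither.

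Some peaks lay beside genes for small structural RNAs, whose starts the rule does not count. A tRNA, snoRNA, snRNA or rRNA gene lay within 200 bp of the summit for 41 of 332 single-gene promoter peaks (12.3%, exact 95% interval 9.01 to 16.4) and for 11 of 273 shared divergent promoter peaks (4.03%, 2.03 to 7.1). The odds ratio was 3.36, with p = 0.000229 by a two-sided Fisher's exact test, and intervals cover counting error only. The rule set both classes by summit position, and the test counts peaks, not replicates, so its p describes these lists only. The odds ratio lay between 2.56 and 6.39 under the alternatives, highest among peaks of the optimal IDR list, with p at most 0.00565 by the same exact test. Counting 1 peak per small RNA gene, since some genes had 2, it was 3.19. Shared divergent summits lie between close starts, as the distances above show, which leaves less room for another gene. Among summits less than 300 bp upstream of the nearer start it was 3.78 (15 of 164 single-gene and 6 of 231 shared divergent peaks, p = 0.00565 by Fisher's exact test), but the space between the starts and the class of promoter cannot be told apart. Of the 41, 22 were beside tRNA, 14 beside snoRNA, and 5 beside snRNA genes, and 26 were among the 170 peaks of the optimal IDR list (15.3%). Operon head peaks gave 11 of 117 (9.4%).

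In the 6 strongest of the 41 the small RNA gene lay nearer to the summit than the protein-coding start did. The strongest was counted to F59C6.18, with a pooled signal of 344 (190 in replicate 1 and 152 in replicate 2), a summit 843 bp upstream and the snoRNA gene F59C6.15 at 121 bp. The chemoreceptor gene sre-23 followed with 248 (134 and 108), its summit 625 bp upstream and 66 bp from the snoRNA gene ZK265.10. T02E1.2 had 232 (114 and 121) at 61 bp from the snoRNA gene T02E1.9, and the summit counted to egg-5 had 209 (114 and 97.4) and lay within the snRNA gene sls-2.4. F55A11.11 had 150 and Y75B12B.11 had 146, both beside snoRNA genes, at 25 and 2 bp. The 5 words were in 12 of the 41 windows (29.3%).

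The X chromosome held 76 of the 332 peaks (22.9%), against 9 of 273 shared divergent (3.3%) and 10 of 117 operon head peaks (8.55%). How many of all shared divergent promoters or operon heads lie on X was not counted. By genes, 74 of the 324 (22.8%) were on X, while 15.2% of the 16032 genes the rule leaves were. Other chromosomes differed from their gene share too: I held 17.6% against 13.8%, III 17% against 12.4%, IV 10.2% against 16.5% and V 14.2% against 25.2%. Chromosome II held 18.2% against 16.9%. On X, 38 of 76 peaks (50%) were in the optimal IDR list, and on the autosomes 132 (51.6%) were. None of the 30 strongest was on X, where the strongest was at ftt-2 (rank 177). Summit windows on X had a median G plus C share of 54.5%, against 49.5% on autosomes, and 56 of 76 (73.7%) held 1 of the 5 words, against 117 (45.7%). ACACTC was in 28.9% of windows on X and 8.98% on autosomes, and CCTCTC in 23.7% and 14.8%. Of the 41 peaks near small RNA genes, 11 were on X, all 11 beside tRNA genes. These shares are a description with no test.

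Gene groups were compared with the 16032 genes that the rule leaves, of which 324, or 2.02%, had such a peak. The rule and the groups were set with earlier results of these data known, so the shares are given with no test. In protein synthesis, 7 of 45 genes for cytosolic ribosomal proteins had a peak (15.6%): rpl-3 (282), rpl-35 (190), rps-18 (105), rpl-24.2 (85.3), rpl-11.2, rpl-41.2 and rps-21, of which 3 were in the optimal IDR list. A further 22 genes of the group had a high peak in a promoter that the rule leaves out. The group includes rpl-24.2, which had no matched RefSeq product. Mitochondrial ribosomal proteins gave 3 of 38 (7.89%), mrps-35 (343), mrpl-15 (165) and mrpl-28 (78.5). Translation factors gave 2 of 18, eef-1A.2 (128), an elongation factor, and ife-4 (75.3), which binds the mRNA cap. Aminoacyl-tRNA synthetases gave 0 of 19, which allows up to 15.8%, with 4 further genes in promoters left out by the rule.

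**Figure D5:**
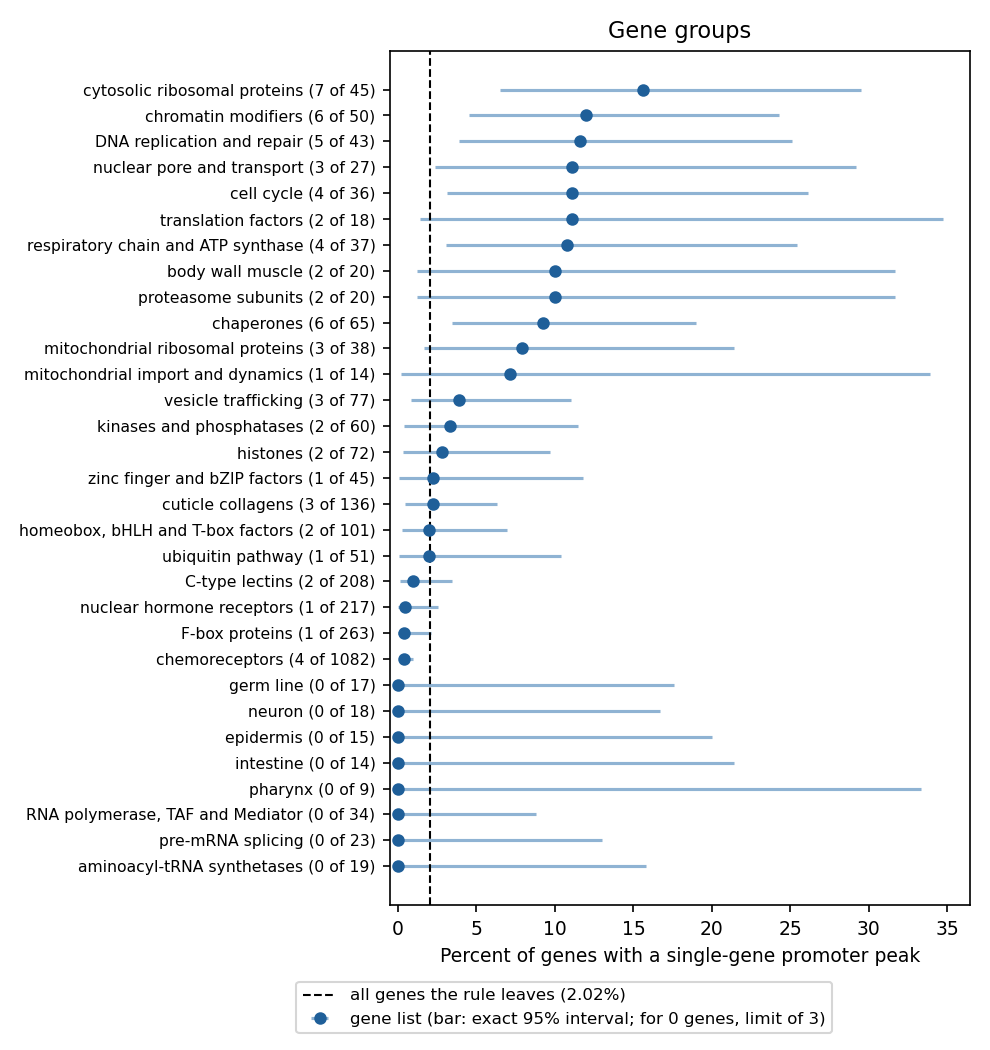
The plot shows the percent of genes with a single-gene promoter peak (horizontal axis) in each of 31 gene groups (rows, with counts), with exact 95% intervals that cover counting error only or, where the count is 0, the limit that 3 genes would give. The dashed line marks 2.02%, the share over all 16032 genes the rule leaves. Cytosolic ribosomal proteins lie highest at 15.6%, and chemoreceptors lie at 0.37%.

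Several nuclear groups lay between 11.1% and 12%. Chromatin modifiers gave 6 of 50 (12%), among them mys-1 (221; 130 in replicate 1 and 92.9 in replicate 2), a Tip60-type histone acetyltransferase, cbp-1 (147), the homolog of CBP and p300, swsn-3 (127), of the SWI/SNF remodelling complex, and set-4 (69.3). DNA replication and repair gave 5 of 43 (11.6%), with mcm-10 (336), pole-1 (186), the catalytic subunit of polymerase epsilon, rfc-2 (79.7) and rpa-2 (76.6) strongest. The group labelled cell cycle gave 4 of 36 (11.1%), cdc-73 (182), cdc-48.1 (164), fzr-1 (71.9) and cdk-7 (71.5), the last unmatched in replicate 2. Whether each of these genes acts in the cell cycle was not examined here. Nuclear pore and transport gave 3 of 27, npp-8 (135), npp-13 (126) and imb-2 (60.7). Histones gave 2 of 72 (2.78%), near the share of all genes: his-37 (101), a histone H4 gene, and hil-3 (91.2). Pre-mRNA splicing gave 0 of 23 and RNA polymerase, TAF and Mediator genes 0 of 34, limits of 13% and 8.82%, although 7 and 11 genes of these groups had a high peak in a promoter left out by the rule.

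Next came groups of protein folding, energy metabolism, protein turnover and trafficking. Chaperones gave 6 of 65 (9.23%), led by cyn-10 (430), hsp-3 (158), an Hsp70 of the endoplasmic reticulum, pdi-6 (146), a disulfide isomerase, and hsp-1 (111), the cytosolic Hsp70. Respiratory chain and ATP synthase gave 4 of 37 (10.8%), the cytochrome oxidase genes cox-6A (102), cox-5B (96.2) and cox-5A (60.9) and the complex I gene nduf-9 (67.7). The cox-6A summit lay near the RNA gene F54D8.7. Proteasome subunits gave 2 of 20 (10%), pbs-3 (93.4) and rpn-11 (73.8), and mitochondrial import 1 of 14 (7.14%), tomm-20 (73.3). The ubiquitin pathway gave 1 of 51 (1.96%, against 2.02% of all genes), ubc-25 (65.5). Vesicle trafficking gave 3 of 77 (3.9%), sec-12 (153), vps-39 (66.5) and sec-3 (65.1).

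Of the large gene families, chemoreceptors gave 4 of 1082 (0.37%, against 2.02% of all genes): sre-23 (248), srh-33 (70.5), srh-269 (67.6) and srd-44 (62.3). Of these, sre-23, srh-269 and srd-44 lay within 200 bp of a small RNA gene. F-box proteins gave 1 of 263 (0.38%), fbxa-83 (82), and nuclear hormone receptors 1 of 217 (0.461%), nhr-255 (99.7), both again beside a small RNA gene. C-type lectins gave 2 of 208 (0.962%), clec-126 (146), beside a tRNA gene, and clec-53 (70.2), in an intron of uba-5. Cuticle collagens gave 3 of 136 (2.21%), near the share of all genes: col-142 (101), col-185 (88) and col-39 (72.5), and summits of col-142 and col-39 lay in coding exons of neighbouring collagen genes.

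For regulators and tissue markers the counts were small. Homeobox, bHLH and T-box factors gave 2 of 101 (1.98%, against 2.02% of all genes), the homeobox gene ceh-43 (77.5), with its summit 985 bp upstream, and hlh-11 (71.8), neither in the optimal IDR list. Zinc finger and bZIP factors gave 1 of 45 (2.22%), ztf-23 (70.8), and kinases and phosphatases 2 of 60 (3.33%), kin-29 (67) and mbk-1 (63.5). Body wall muscle genes gave 2 of 20 (10%), cpn-3 (111), a calponin-related gene, and act-4 (66.7), an actin gene. No marker gene had a peak among 9 of pharynx, 14 of intestine, 15 of epidermis, 18 of neurons and 17 of germ line, which allows shares of up to 33.3%, 21.4%, 20%, 16.7% and 17.6%, so these groups are too small to read. The promoter of tbx-7 itself held 0 of the 8759 pooled peaks. The windows of his-37, act-4 and eef-1A.2, which have close relatives in the genome, held no 31-base word found elsewhere.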

How the data were processed

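Per the labels and the metadata text deposited with each sample, the authors called peaks on each replicate and on both together against 1 control alignment and derived the optimal IDR list from these. No source used here names the aligner, the peak caller or the depth. Each peak's signal was taken as deposited, in the units of the caller and valid within its own list, and the −log10 of the q-value was deposited by the authors beside it and used only to describe. Summits of the ce11 lists were placed on Ensembl release 115 genes of WBcel235, and the ce10 lists were not used here.

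The peaks, gene groups and words were chosen with earlier results of these data known. Words were counted on both strands within 50 bp of the summit and of a point 500 bp away, on alternating sides, and compared by the exact McNemar test, or by Fisher's exact test against shared divergent promoter peaks, with Benjamini-Hochberg adjustment over all six-base words at 0.05 (Python 3.11.15, numpy 2.4.6, scipy 1.17.1). Simulated summit and flank windows were drawn with the same base composition, unlike the real ones (median G plus C 50.5% and 35.6%). In 10 runs with nothing planted, 0 words were called. Of words planted in 12% of windows 36 of 50 were found, and of those planted in 25% 50 of 50. The simulation therefore cannot show how many words a difference in base composition alone would call. Named genes were the 30 strongest peaks, the 5 at each edge, up to 4 per gene group, the 5 highest and 5 lowest ratios of replicate ranks, genes with more than 1 peak and up to 6 near small RNA genes. RefSeq products matched 331 of 332 peaks.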

Additional observations from a re-analysis of the deposited data

How the results depend on the processing

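Of 92 recomputed values, 65 stayed as reported and 27 did not. The odds ratio was judged by the side of its test's threshold, and counts by 1.5 times the reported count. Shares and medians were judged by the 95% interval of the reported value. Only the odds ratio near small RNA genes could reverse in direction, and it did not. No paired analysis was possible because the samples form 1 group and no groups were compared. The median summit distance was 217 bp with a promoter of 500 bp upstream to 100 bp downstream and 374 bp with 1500 bp upstream. The 690 highest peaks and the optimal IDR list each gave 170 peaks and 167 genes, 100% of them in that list by construction, with 99.4% and 96.5% matched in replicates 1 and 2. Matching summits within 50 bp gave 86.7% and 84.9%, and within 200 bp 99.7% and 98.5%. Taking the peaks from the other replicate alone (leaving out each replicate in turn) gave 312 to 328 peaks at 306 to 319 genes, 50.3% to 51.2% of them in the optimal IDR list, a median distance of 288 to 298 bp, a match of 81.4% in replicate 1 and of 75.9% in replicate 2, 147 to 175 words more frequent and 79 to 109 less frequent at summits, 3 to 7 words that differ from shared divergent promoter peaks, and odds ratios of 2.87 to 3.09 near small RNA genes. Peaks of the optimal IDR list alone gave 59 words more frequent and 23 less frequent, with fewer peaks tested. Leaving out the X chromosome, chosen after seeing the data as were leaving out peaks with a shared 20-base stretch, 1 peak per small RNA gene and summits less than 300 bp upstream, gave 142 and 65, again with fewer peaks. Against shared divergent promoter peaks, windows of 75 bp to either side gave 36 differing words and the optimal IDR list alone 0, and the cause was not tested. The unknown depth leaves no floor for an unlisted peak.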
